A study of Mus musculus with 8 samples.

Results

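Gene expression was compared between panobinostat and vehicle in plasmacytoid dendritic cells (pDC), the members being the 4 pDC libraries of the 8 in the series. They were chosen by their labels and column names, D5W (dextrose in water) for vehicle and LBH (LBH589, panobinostat) for drug. All mice were C57BL/6 and carried leukemia, the vehicle controls included, and were treated for 2 days before cells were sorted from the spleen. Each library came from a pool of 3 to 6 mice, so the spread between the 2 libraries of a group is one between pools. The sources used here give no dose, no age or sex of the mice and no sort gates. The other 4 libraries, conventional dendritic cells (cDC) of leukemia-bearing C57BL/6 mice with the same 2 treatments, entered the shared fit and were used to ask whether the effect differed between the cell types.

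Panobinostat blocks the histone deacetylases, enzymes that remove acetyl groups from histone tails and other proteins, and so raises acetylation at many promoters and enhancers. pDC are dendritic cells that sense nucleic acids in endosomes through TLR7 and TLR9 and can release large amounts of type I interferon by way of the transcription factor IRF7. Their identity depends on the transcription factor E2-2, encoded by Tcf4, and they carry the surface proteins Siglec-H and BST2. The series title asks about activation of pDC and signalling through the type I interferon receptor.

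The vehicle libraries held 18142443 and 18756193 counts, and the panobinostat libraries 19902188 and 13124861. The second panobinostat library stood apart: 10745 genes had at least 1 count in it, against 14927 to 19950 in the other 3. Of 14238 genes tested, 3916 (27.5%) had 0 counts in it, against 216 to 946 in the other 3. Among 8209 genes at 10 CPM or more with vehicle (CPM, counts scaled to the library size), 456 had 0 counts in the second panobinostat library and 0 genes had 0 counts in the first. The 2 libraries also differed in which transcripts they held. From the lowest to the highest quintile of tested genes by GC content, the median log2 difference from the vehicle mean ran from 0.18 to -0.31 in the first panobinostat library and from -0.46 to -1.15 in the second. From the shortest to the longest quintile by transcript length, it ran from 0.14 to -0.04 in the first and from 0.40 to -1.59 in the second. Gene levels are therefore given per library, and offsets that remove the trend on GC content and length were applied as an alternative.

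**Figure D1:**
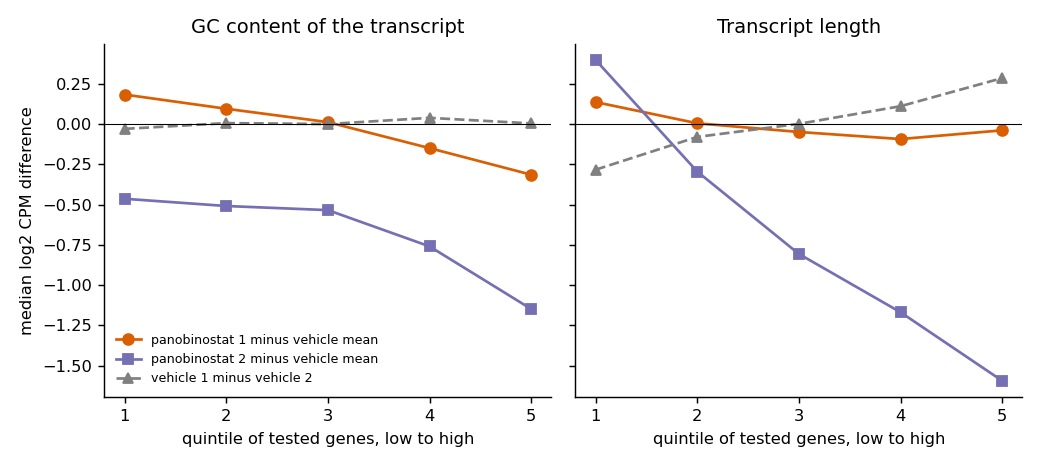
Median log2 CPM difference (y axis) in each quintile of tested genes by transcript GC content (left) and transcript length (right), for each panobinostat pDC library minus the vehicle mean and for vehicle replicate 1 minus replicate 2. Replicate 2 of panobinostat falls to -1.59 in the longest quintile, where replicate 1 is at -0.04.

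The pDC markers were present in every library. Siglech, the gene for Siglec-H, was at 4061 and 4240.1 CPM with vehicle and 5435 and 6548 CPM with panobinostat. Tcf4 was at 1412 and 1064 CPM with vehicle and 1601 and 1049.9 CPM with panobinostat. Bst2, the gene for BST2, was at 1283 and 1788 CPM with vehicle and 2119.5 and 4095 CPM with panobinostat. Siglech and Bst2 were higher in both panobinostat libraries than in either vehicle library, and Tcf4 overlapped between the groups; the edgeR adjusted p values were 0.481, 0.289 and 0.884. With the GC and length offsets Siglech and Bst2 overlapped between the groups too. Of 24 pDC identity genes, all tested, 0 passed (0.0913% of all genes tested did), 14 lay above 0 and 10 below, with a median of 0.08 against -0.14 over all genes tested. In bulk RNA, fewer cells of a type and less RNA per cell cannot be told apart.

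2 of the 24 identity genes were at least 2-fold lower in both panobinostat libraries than in both vehicle libraries, as were 7.73% of all genes tested. Spib, an ETS transcription factor of pDC and B cells, was at 801 and 809 CPM with vehicle and 272 and 312 CPM with panobinostat. Lag3, an inhibitory receptor carried by pDC as well as T cells, was at 815 and 982 CPM with vehicle and 295 and 258 CPM with panobinostat. Cd4, which mouse pDC also express, was at 690.5 and 795 CPM with vehicle and 272 and 280 CPM with panobinostat. In these 3 genes the groups lay well apart and the libraries of a group close together, yet none passed the test. The log2 fold changes were -1.46 ± 0.18 for Spib, -1.70 ± 0.27 for Lag3 and -1.43 ± 0.21 for Cd4 (± SE; edgeR adjusted p = 0.0852, 0.124 and 0.112). With the GC and length offsets, the nearest libraries of Spib, Lag3 and Cd4 were still 1.09, 1.25 and 1.10 log2 units apart. Ccr9, a homing receptor of pDC, was at 1194 and 1098 CPM with vehicle and 686 and 821 CPM with panobinostat (edgeR adjusted p = 0.283).

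Markers of other cells were summed in each library. The 16 cDC identity genes, markers of the other cell type sorted, summed to 2022 and 2465 CPM with vehicle and 2280.2 and 3937 CPM with panobinostat, with 12 of 16 above 0. The summed level of 12 NK cell markers was 181 and 279 CPM with vehicle and 595 and 1321 CPM with panobinostat, nearly all of it Klrk1 and Klrd1. The other 10 NK cell markers, among them Ncr1, Gzma and Prf1, summed to 2.47 and 6.16 CPM with vehicle and 9.72 and 1.39 CPM with panobinostat, and 9 of the 10 had 0 counts in the second panobinostat library. In that library 27.5% of all genes tested had 0 counts, and these 10 markers were low with vehicle too. In the first panobinostat library their sum lay above both vehicle libraries, as Klrk1 and Klrd1 did. The 14 B cell markers summed to 3561 and 3671 CPM with vehicle and 4009.9 and 4899 CPM with panobinostat, with 11 of 14 above 0 and a median of 0.66. Cd79a, a chain of the B cell receptor complex, was at 5.85 and 20.1 CPM with vehicle and 24.04 and 59.9 CPM with panobinostat. Pax5, a transcription factor of B cells, had 14 and 20 counts with vehicle and 2 and 1 with panobinostat, so single markers of the list differed in direction. The 9 erythroid markers, mostly globins, summed to 2507 and 1243 CPM with vehicle and 7128 and 2448 CPM with panobinostat. The 12 macrophage markers summed to 47.7 and 29.2 CPM with vehicle and 40.5 and 0.0929 CPM with panobinostat, with 11 at 0 in the second panobinostat library. The macrophage markers were already low with vehicle, and the 27.5% of all genes tested at 0 in that library limits what their zeros show. Globins were highest in the first panobinostat library. The 12 T cell markers summed to 1127 and 1696 CPM with vehicle and 579 and 797 CPM with panobinostat, mostly Cd4 and Cd8b1; the other 10 summed to 62.8 and 42.5 CPM with vehicle and 109.7 and 129.9 CPM with panobinostat. The 11 monocyte markers summed to 435 and 426 CPM with vehicle and 857 and 982 CPM with panobinostat, mostly Ccr2, and without it to 35.8 and 48.2 CPM with vehicle and 24.9 and 10.1 CPM with panobinostat. The part of these cells in the differences below was not tested.

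The test found 13 of 14238 genes changed by panobinostat in pDC (0.0913% called; edgeR's quasi-likelihood test, Benjamini-Hochberg adjusted p below 0.05), 2 higher (0.0140%) and 11 lower (0.0773%). At an unadjusted p of 0.05, 804 genes were higher (5.65%) and 1315 lower (9.24%). The 13 calls rest on the setting: edgeR passed 0 genes with the replicate number as a block and 0 with the GC and length offsets (2408 and 2131 at an unadjusted p of 0.05), limma-voom passed 0 and DESeq2 906. Without the second panobinostat library 719 genes passed, 101 higher and 618 lower, and without the first 8227 passed. Fold changes are given as log2 ± SE, with 2 libraries per group.

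Klri2 and Ifi27 rose. Klri2, a killer cell lectin-like receptor, was at 9.94 and 9.95 CPM with vehicle and 113 and 129.6 CPM with panobinostat (log2 fold change 3.61 ± 0.22, edgeR adjusted p = 0.0143). Ifi27, an interferon-induced gene, was at 43.2 and 45.03 CPM with vehicle and 169 and 199 CPM with panobinostat (log2 fold change 2.06 ± 0.18, edgeR adjusted p = 0.0458). For both genes the 2 vehicle libraries were almost equal and both panobinostat libraries lay far above them. With the offsets the nearest libraries remained 3.22 log2 units apart for Klri2 but 0.55 for Ifi27.

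The 11 genes that fell came from several processes. Plekho2, which encodes a pleckstrin homology domain protein, was at 72.03 and 80.99 CPM with vehicle and 6.35 and 6.78 CPM with panobinostat (log2 fold change -3.54 ± 0.19, edgeR adjusted p = 0.0133). Akna, an AT-hook protein, was at 151 and 117 CPM with vehicle and 15.8 and 17.7 CPM with panobinostat (log2 fold change -3.00 ± 0.23, edgeR adjusted p = 0.0364). Pxn, which encodes the focal adhesion adaptor paxillin, was at 93.8 and 105 CPM with vehicle and 18 and 13.3 CPM with panobinostat (log2 fold change -2.67 ± 0.25, edgeR adjusted p = 0.0458). In each of these 3 the libraries of a group lay close together and no library overlapped the other group. Plekho2 lies at chr9:65552577-65580087, Klri2 at chr6:129729041-129740484 and Ifi27 at chr12:103434189-103440245 (GRCm38).

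Srebf2 encodes SREBP2, the transcription factor that drives cholesterol synthesis and uptake. It was at 389 and 279 CPM with vehicle and 60.1 and 43.01 CPM with panobinostat (log2 fold change -2.69 ± 0.26, edgeR adjusted p = 0.0464). Scarb1, the gene for the lipoprotein receptor SR-BI, was at 165 and 161 CPM with vehicle and 55.9 and 56.4 CPM with panobinostat (log2 fold change -1.54 ± 0.15, edgeR adjusted p = 0.0499). Gaa and Man2b2 encode lysosomal glycosidases. Gaa was at 161 and 192 CPM with vehicle and 44.5 and 51.2 CPM with panobinostat (log2 fold change -1.88 ± 0.19, edgeR adjusted p = 0.0499). Man2b2 was at 161 and 146 CPM with vehicle and 46.5 and 45.7 CPM with panobinostat (log2 fold change -1.73 ± 0.18, edgeR adjusted p = 0.0499). In both, the vehicle libraries were more than 2-fold above the panobinostat libraries.

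Lypla2, a depalmitoylating thioesterase, was at 207 and 209 CPM with vehicle and 59.7 and 65.5 CPM with panobinostat (log2 fold change -1.73 ± 0.15, edgeR adjusted p = 0.0458). Sbf1, a myotubularin-related pseudophosphatase, was at 74 and 85.3 CPM with vehicle and 16.01 and 14.3 CPM with panobinostat (log2 fold change -2.39 ± 0.22, edgeR adjusted p = 0.0458). Rnf144b and Gatm, an E3 ubiquitin ligase and the arginine-glycine amidinotransferase, passed on few reads. Rnf144b had 24 and 22 counts with vehicle and 0 and 0 with panobinostat, at least 12.4-fold lower against a floor of 3 counts over the group. Gatm had 18 and 20 counts with vehicle and 0 and 0 with panobinostat, at least 10.2-fold lower. Of the 11 genes that fell, 8 had a GC content in the highest 2 quintiles of tested genes. With the offsets, 8 of the 11 were still 2-fold apart between the nearest libraries, and all 11 stayed without overlap. The 11 had been picked by the test on these same libraries.

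To show what both drug-treated pools share, genes were counted whose 2 panobinostat libraries were both at least 2-fold above or below both vehicle libraries, a description with no test. There were 196 such genes higher (1.38% of genes tested) and 1100 lower (7.73%). In cDC the same count gave 58 higher (0.407%) and 159 lower (1.12%). Of the pDC genes, 4 of 196 (2.04% of them, and 6.90% of the 58) were higher in cDC too, and 23 of 1100 (2.09% of them, and 14.5% of the 159) were lower in cDC too. Among the 1100 lower genes, 708 had 0 counts in the second panobinostat library, 314 in the first and 301 in both, and 379 had counts in both. Their median GC content was 54.1% and their median length 3904.5 bases, against 49.6% and 3307 bases over the genes tested. The share of genes lower in both rose from 2.66% in the lowest to 16.4% in the highest quintile by GC content. The 196 higher genes had a median GC content of 48.9% and a median length of 2551 bases, and 177 had 20 counts or more in both panobinostat libraries. With the offsets the counts were 182 (1.28%) and 884 (6.21%), which held 136 and 783 of the same genes.

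**Figure D2:**
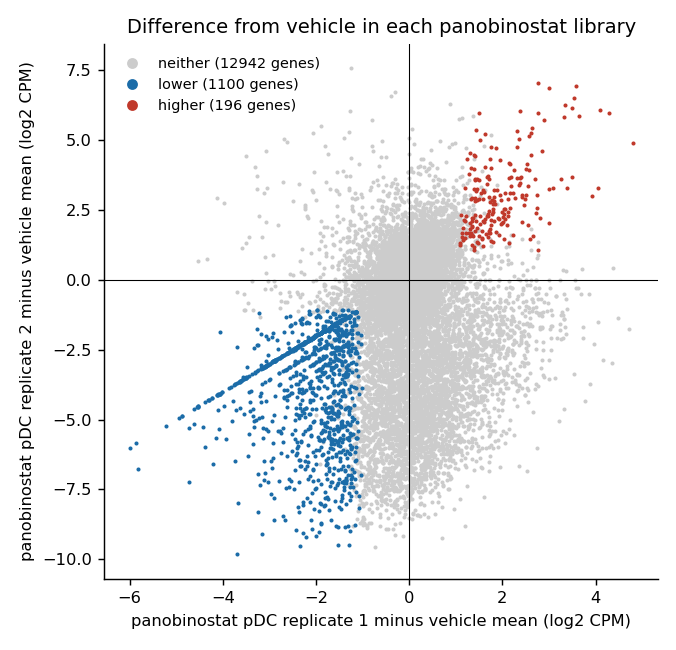
Log2 CPM difference from the mean of the vehicle pDC libraries in panobinostat replicate 1 (x axis) and replicate 2 (y axis), 1 point per tested gene; both axes share the vehicle libraries. Red marks the 196 genes 2-fold higher in both and blue the 1100 genes 2-fold lower in both; the diagonal streak of blue points holds genes with 0 counts in both panobinostat libraries.

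By rule, the 12 genes higher in both with the largest gap between the nearest libraries, at a mean log2 CPM of 3 or more and 20 counts or more in both panobinostat libraries, were Calm5, Klri2, Calm4, Cd36, Cited2, H2-Ob, Bank1, F830016B08Rik, Klrk1, Ms4a4b, Syt11 and Vegfd. Cd36, a scavenger receptor and fatty acid transporter, was at 17.6 and 15.3 CPM with vehicle and 140.4 and 161 CPM with panobinostat (log2 fold change 3.20 ± 0.39, edgeR adjusted p = 0.0794). H2-Ob, a chain of the H2-O protein that restrains peptide loading of MHC class II, was at 30.6 and 48.8 CPM with vehicle and 216 and 292 CPM with panobinostat (log2 fold change 2.68 ± 0.29, edgeR adjusted p = 0.0601). Klrk1, the gene for the activating receptor NKG2D, was at 22.95 and 42.8 CPM with vehicle and 178 and 487 CPM with panobinostat (log2 fold change 3.34 ± 0.55, edgeR adjusted p = 0.128). The 2 panobinostat libraries of Cd36 and H2-Ob lay close together, while Klrk1 was far higher in the second than in the first. B cells also express H2-Ob and Bank1: the B cell markers other than Ighm, Fcrla, Cd79b and Bank1 (10 genes, left after the values were seen) summed to 45.7 and 95.6 CPM with vehicle and 95.8 and 184.1 CPM with panobinostat. This sum was higher with panobinostat at each replicate number, as H2-Ob and Bank1 were, and the part of B cells in their differences was not tested.

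Klri1, a receptor gene related to Klri2, was at 0.454 and 0.919 CPM with vehicle and 5.55 and 39.7 CPM with panobinostat, and Klrd1, the gene for the CD94 subunit, at 156 and 229.6 CPM with vehicle and 407 and 832 CPM with panobinostat. Neither passed (edgeR adjusted p = 0.147 for Klri1 and 0.159 for Klrd1). Klrd1 went from a log2 fold change of 1.69 to 0.03 with the offsets, and its libraries overlapped. Of the 21 killer cell lectin-like receptor genes listed, 20 were tested and 1 was called (Klri2, higher, as were 0.0140% of all genes tested). Klri1, Klri2 and Klrk1 were 2-fold higher in both libraries (3 of 20, against 1.38% of all genes tested). In the second panobinostat library 14 of the 20 had 0 counts. Bank1, a B cell scaffold protein, was at 4.79 and 8.49 CPM with vehicle and 37.8 and 67.4 CPM with panobinostat and Cited2, a transcriptional coregulator, at 2.93 and 2.65 CPM with vehicle and 18.5 and 35.2 CPM with panobinostat. Ms4a4b and Ms4a4c encode membrane proteins of the MS4A family. Ms4a4b was at 2.98 and 5.73 CPM with vehicle and 23.8 and 34.9 CPM with panobinostat, and Ms4a4c was at 28.95 and 53.4 CPM with vehicle and 202 and 416 CPM with panobinostat. None of these 4 passed the test, with edgeR adjusted p values of 0.148, 0.128, 0.159 and 0.128.

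Calm4 and Calm5 encode calmodulin-like proteins known from the epidermis. Calm4 was at 5.35 and 6.70 CPM with vehicle and 68.6 and 436 CPM with panobinostat. Calm5 was at 1.36 and 1.51 CPM with vehicle and 18.4 and 191 CPM with panobinostat. Both were far higher in the second panobinostat library than in the first, with edgeR adjusted p values of 0.132 and 0.147. Of 5 keratin genes looked at after these values were seen, Krt1, Krt14 and Krt15 had 0 counts in all 4 libraries and Krt5 had 2 counts in 1 vehicle library. Krt10 had 88 and 115 counts with vehicle and 124 and 260 with panobinostat. Syt11, a synaptotagmin, was at 6.56 and 5.30 CPM with vehicle and 27.1 and 77.6 CPM with panobinostat, and Vegfd, a lymphatic growth factor, at 7.52 and 3.35 CPM with vehicle and 34.2 and 30.4 CPM with panobinostat. The unnamed gene F830016B08Rik was at 2.77 and 2.92 CPM with vehicle and 12.8 and 53.1 CPM with panobinostat. Of the 12 genes, 11 stayed 2-fold apart with the offsets and Vegfd did not. They were picked for their large gaps, and of all 196 higher genes 136 stayed 2-fold apart.

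**Figure D3:**
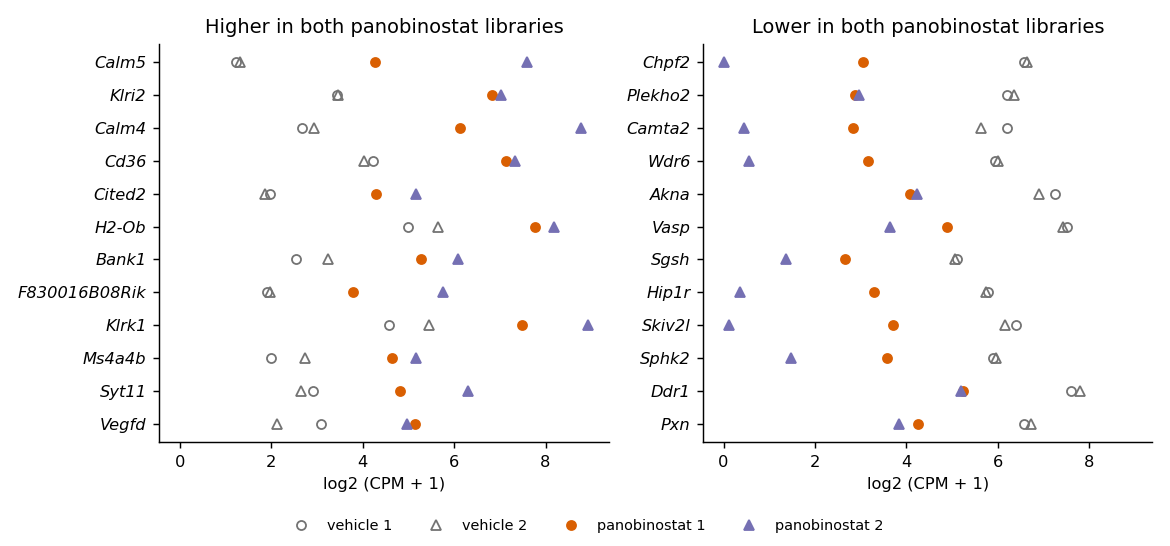
Log2 of CPM plus 1 (x axis) in each of the 4 pDC libraries for the 12 genes with the largest gap between the nearest vehicle and panobinostat libraries in each direction. Open symbols are vehicle and filled symbols panobinostat libraries; Klri2 sits at 9.94 and 9.95 CPM with vehicle and at 113 and 129.6 CPM with panobinostat.

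By the same rule the 12 genes lower in both with the largest gap were Chpf2, Plekho2, Camta2, Wdr6, Akna, Vasp, Sgsh, Hip1r, Skiv2l, Sphk2, Ddr1 and Pxn. Their GC content was 51.8% to 59.7%. Vasp, an actin filament elongation factor, was at 181 and 172 CPM with vehicle and 28.4 and 11.4 CPM with panobinostat (log2 fold change -3.14 ± 0.42, edgeR adjusted p = 0.1000). Ddr1, a collagen receptor kinase, was at 194 and 222 CPM with vehicle and 36.5 and 35.7 CPM with panobinostat (log2 fold change -2.53 ± 0.28, edgeR adjusted p = 0.0668). Sgsh, a lysosomal sulfatase, was at 33.6 and 32.4 CPM with vehicle and 5.30 and 1.58 CPM with panobinostat (log2 fold change -3.25 ± 0.63, edgeR adjusted p = 0.146). In Ddr1 the libraries of each group lay close together, while Vasp and Sgsh were lower still in the second panobinostat library. Chpf2, a chondroitin polymerase subunit, was at 94.4 and 97.7 CPM with vehicle and at 7.29 CPM and 0 counts with panobinostat, where 3 counts in that library would be 0.279 CPM. Camta2, Wdr6, Hip1r and Skiv2l were at 0.0929 to 0.464 CPM in the second panobinostat library and at 6.10, 7.93, 8.77 and 12.05 CPM in the first, against 48.5 to 83.3 CPM with vehicle. All 12 stayed 2-fold apart with the offsets, and only Plekho2, Akna and Pxn among them passed the test. The 12 were picked for the largest gaps in these same libraries, so this was largely fixed in advance. Of all 1100 lower genes, 783 kept a 2-fold gap.

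Promoter stretches are shown for Plekho2 and Srebf2, which fell, and for H2-Ob and Cd36, which were higher in both libraries, since the transcripts lower in both were the more GC-rich. These 4 were chosen after their values were seen. Each is the 250 bases before a start of the gene, from RefSeq on GRCm38.p6, 5′ to 3′ on the gene's strand, with GC boxes (GGGCGG on either strand) in capitals.
Plekho2: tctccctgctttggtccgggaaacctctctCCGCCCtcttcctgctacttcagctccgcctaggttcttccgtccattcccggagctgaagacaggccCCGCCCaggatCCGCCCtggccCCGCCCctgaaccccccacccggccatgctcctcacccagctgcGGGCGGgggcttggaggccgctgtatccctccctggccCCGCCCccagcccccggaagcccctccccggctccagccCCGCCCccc
Srebf2: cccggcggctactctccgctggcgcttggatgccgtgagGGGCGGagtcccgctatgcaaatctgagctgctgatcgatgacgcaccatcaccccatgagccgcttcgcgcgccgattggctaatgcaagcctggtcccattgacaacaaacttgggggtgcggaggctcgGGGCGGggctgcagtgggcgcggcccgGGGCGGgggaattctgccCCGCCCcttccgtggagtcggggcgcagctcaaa
H2-Ob: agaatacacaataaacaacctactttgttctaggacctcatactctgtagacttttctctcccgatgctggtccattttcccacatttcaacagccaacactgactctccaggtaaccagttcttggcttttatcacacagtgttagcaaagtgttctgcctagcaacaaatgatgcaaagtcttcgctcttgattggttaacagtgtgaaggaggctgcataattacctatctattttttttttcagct
Cd36: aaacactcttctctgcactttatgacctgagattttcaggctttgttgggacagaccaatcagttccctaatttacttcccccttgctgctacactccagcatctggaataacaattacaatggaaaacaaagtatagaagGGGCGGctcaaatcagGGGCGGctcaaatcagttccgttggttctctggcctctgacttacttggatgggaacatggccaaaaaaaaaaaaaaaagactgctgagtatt
The windows lie at chr9:65580088-65580337, minus strand, for Plekho2; chr15:82147019-82147268, plus strand, for Srebf2; chr17:34238655-34238904, plus strand, for H2-Ob; and chr5:17835897-17836146, minus strand, for Cd36. The Cd36 window lies inside the annotated gene (chr5:17781690-17888959), before a start that is not its outermost one; the other windows adjoin the outer start of their gene. They held 7 GC boxes at Plekho2, 4 at Srebf2, 0 at H2-Ob and 2 at Cd36, and their GC content was 72.4%, 67.6%, 40.4% and 43.2%. Of 27025 genes with a promoter in the table, 35.4% held a GC box in this window. Among the 10705 genes tested that had a promoter, 60.8% did, so a GC box is common among tested genes. A TATA box (TATAAA), searched on both strands, matched in 14.3% of the 27025 genes and in 0 of the 4 windows. It matched in 8.35% of the genes tested that had a promoter. Of the higher genes with a promoter 42.4% held a GC box and 20.5% a TATA box, and of the lower genes 65.1% and 7.96%. The median GC content of the windows was 52.8% for the higher, 60.0% for the lower and 59.2% for all genes tested. These shares were not tested, and the 4 windows shown do not stand for their sets. The table held promoters for only 151 of the 196 higher genes (77.0%) and 829 of the 1100 lower genes (75.4%). For the genes tested that part was 75.2%.

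Of 28 genes of cholesterol synthesis and uptake, all tested, 0 were called higher and 2 lower, Srebf2 and Scarb1. Over all genes tested, 0.0140% were called higher and 0.0773% lower. In both libraries 3 of the 28 were 2-fold lower, as were 7.73% of all genes tested. The list median was 0.15, and 17 genes lay above 0. Srebf1, which encodes the related factor SREBP1, was at 133 and 96.2 CPM with vehicle and 30.4 and 25.7 CPM with panobinostat (log2 fold change -2.03 ± 0.26, edgeR adjusted p = 0.0908). Scap, the escort protein that both factors need for activation, was at 154 and 137 CPM with vehicle and 59.8 and 75.99 CPM with panobinostat (log2 fold change -1.10 ± 0.20, edgeR adjusted p = 0.134). These regulator genes were lower in both libraries, while the list median lay above the -0.14 of all genes tested. With the offsets the nearest libraries of Scap overlapped and those of Srebf1 were 0.80 log2 units apart.

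Of 39 genes for lysosomal hydrolases and their regulators, 2 were called lower (Gaa and Man2b2), as were 0.0773% of all genes tested. In both libraries 6 were 2-fold lower (7.73% of all genes tested were), and the list median was -0.07. Lgmn, an asparaginyl endopeptidase, was at 171 and 175 CPM with vehicle and 265 and 326 CPM with panobinostat (log2 fold change 0.77 ± 0.20, edgeR adjusted p = 0.199), and Idua, which degrades glycosaminoglycans, at 69.7 and 64.1 CPM with vehicle and 30.04 and 36.6 CPM with panobinostat (log2 fold change -1.01 ± 0.28, edgeR adjusted p = 0.216). Idua lay lower without passing. Lgmn, a member of the nucleic acid sensing and MHC class II lists rather than this one, lay higher without passing. In the hydrolase list, 15 genes lay above 0 and 24 below. Of 30 genes of adhesion and the actin cytoskeleton, 1 was called (Pxn, lower), against the same 0.0773%. In both libraries 7 were 2-fold lower (7.73% of all genes tested were). The list median was -0.69, with -0.41 and -0.96 in the first and second panobinostat library. Itgal, the integrin chain of LFA-1, was at 639 and 518 CPM with vehicle and 204 and 167 CPM with panobinostat (log2 fold change -1.64 ± 0.22, edgeR adjusted p = 0.0979). Flna, the actin crosslinker filamin A, was at 146 and 81.2 CPM with vehicle and 27.2 and 19.97 CPM with panobinostat (log2 fold change -2.27 ± 0.39, edgeR adjusted p = 0.128). Under the offsets the nearest libraries were 0.75 log2 units apart for Itgal and 0.79 for Flna.

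Of 18 type I interferon genes, 1 had enough counts to test. The 14 Ifna genes summed to 4 and 2 counts with vehicle and 1 and 0 with panobinostat. Ifnb1 had 2 and 2 counts with vehicle and 20 and 0 with panobinostat, so 1 drug-treated pool held nearly all of its reads. For the Ifna genes no difference was detectable at this depth. Ifnar1, a chain of the interferon receptor, was at 479 and 463 CPM with vehicle and 320.5 and 369.6 CPM with panobinostat (edgeR adjusted p = 0.304), slightly lower in both drug-treated pools but overlapping with the offsets. Ifnar2, the other chain, overlapped between the groups at 437 and 585 CPM with vehicle and 375 and 573 CPM with panobinostat. Tyk2, the kinase bound to IFNAR1, was at 202 and 148 CPM with vehicle and 38.8 and 73.6 CPM with panobinostat (log2 fold change -1.64 ± 0.33, edgeR adjusted p = 0.148), and its gap closed with the offsets.

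Of 53 interferon response genes, 52 were tested. Of these 1 was called (Ifi27, higher, as were 0.0140% of all genes tested) and 36 lay above 0. Their median was 0.47, 0.44 and 0.55 in the first and second panobinostat library, against 0.01 and -0.65 over all genes tested. With the offsets these medians were 0.35 and 0.32. Against 1.38% and 7.73% of all genes tested, 5 of the 52 were 2-fold higher in both libraries (Ifi27, Ms4a4c and, named after their values were seen, Ifit1, Ifit1bl1 and Rtp4), and 2 were 2-fold lower in both (Pml and Dtx3l). Ifit1, an inhibitor of viral translation, was at 8.98 and 16.1 CPM with vehicle and 35.1 and 105 CPM with panobinostat (edgeR adjusted p = 0.189). After the offsets, the nearest libraries of Ifit1, Ifit1bl1 and Rtp4 were 0.89, 0.62 and 0.19 log2 units apart. Usp18, which removes ISG15 from proteins, was at 146 and 191 CPM with vehicle and 260.3 and 457 CPM with panobinostat (edgeR adjusted p = 0.239). Isg15 overlapped, at 28.04 and 53.6 CPM with vehicle and 43.1 and 50.3 CPM with panobinostat.

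Pml, which organises nuclear bodies, was at 403 and 377 CPM with vehicle and 137 and 139.9 CPM with panobinostat (log2 fold change -1.49 ± 0.18, edgeR adjusted p = 0.0758). Dtx3l, a ubiquitin ligase partner of PARP9, was at 129.7 and 132 CPM with vehicle and 46.6 and 32.3 CPM with panobinostat (log2 fold change -1.73 ± 0.23, edgeR adjusted p = 0.0963). With the offsets the nearest libraries were 1.43 log2 units apart for Dtx3l and 0.43 for Pml. In nucleic acid sensing, Irf7 was at 831 and 1376 CPM with vehicle and 649.9 and 1039 CPM with panobinostat, Tlr7 at 289 and 333 CPM with vehicle and 291 and 463 CPM with panobinostat and Tlr9 at 29.2 and 26.8 CPM with vehicle and 23.3 and 7.43 CPM with panobinostat. Irf7 and Tlr7 overlapped between the groups; Tlr9 was slightly lower in the first panobinostat library and far lower in the second, and overlapped with the offsets. Of the 19 sensing genes 0 passed, and the median was -0.39.

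The drug's targets were measured as transcripts, which do not report enzyme activity. Hdac1 was at 239 and 262 CPM with vehicle and 244 and 241 CPM with panobinostat, with overlap. Hdac3 was at 108 and 116 CPM with vehicle and 121 and 15.9 CPM with panobinostat, low only in the second panobinostat library. Hdac2 was at 5.25 and 4.76 CPM with vehicle and 10.1 and 3.16 CPM with panobinostat, above the vehicle range in the first and below it in the second. Of 26 deacetylase and corepressor genes 0 passed and 3 were 2-fold lower in both (7.73% of all genes tested were); among them Hdac5, a class IIa deacetylase, was at 147 and 131 CPM with vehicle and 46.9 and 38.3 CPM with panobinostat (log2 fold change -1.71 ± 0.27, edgeR adjusted p = 0.126). Of 20 acetyltransferases and bromodomain readers 0 passed and 2 were 2-fold lower in both, against the same 7.73%. Brd2, a BET bromodomain protein, was at 209 and 285 CPM with vehicle and 95.6 and 70.5 CPM with panobinostat (edgeR adjusted p = 0.119), and Ncoa3, a nuclear receptor coactivator, at 115 and 79.6 CPM with vehicle and 37.2 and 37.3 CPM with panobinostat (edgeR adjusted p = 0.126). After the offsets, nearest libraries of Hdac5, Brd2 and Ncoa3 were 0.36, 0.25 and 0.22 log2 units apart.

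Of 20 genes often induced by deacetylase inhibitors, 19 were tested and 0 passed, with medians of 0.42 and 0.21 in the first and second panobinostat library, and 0.53 and -0.35 with the offsets. Gadd45g, a stress-induced growth arrest gene, was at 1.31 and 0.595 CPM with vehicle and 9.42 and 12.2 CPM with panobinostat (log2 fold change 3.49 ± 0.52, edgeR adjusted p = 0.112). Cdkn1a, the gene for the cell cycle inhibitor p21, was at 11.8 and 8.33 CPM with vehicle and 22.7 and 9.38 CPM with panobinostat. Gadd45g was apart in both libraries, and Cdkn1a was higher in the first and within the vehicle range in the second. In this list 1 gene was 2-fold higher in both (Gadd45g, against 1.38% of all genes tested) and 1 was 2-fold lower (Clu, against 7.73%). Clu had 10 and 24 counts with vehicle and 4 and 0 with panobinostat.

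In antigen presentation, 0 of 14 MHC class II genes were called; the list median was 0.14 and 0.90 in the first and second panobinostat library, and 0.02 and 0.08 with the offsets. Of 21 MHC class I genes 0 were called, with medians of -0.11 and 0.36, and 0.11 and 0.19 with the offsets. Ciita, the master activator of MHC class II genes, was at 261 and 268 CPM with vehicle and 111 and 45.4 CPM with panobinostat (log2 fold change -1.75 ± 0.40, edgeR adjusted p = 0.167). Nlrc5, its class I counterpart, was at 103 and 88.2 CPM with vehicle and 44.6 and 42.5 CPM with panobinostat (log2 fold change -1.14 ± 0.26, edgeR adjusted p = 0.169). Both lay lower in both panobinostat libraries. After the offsets the libraries nearest for Ciita were 0.59 log2 units apart, while Nlrc5 overlapped and its log2 fold change went to -0.31. Fcgr2b, the inhibitory Fc receptor and 1 of the cDC identity genes summed above, was at 50.6 and 42.3 CPM with vehicle and 118 and 356 CPM with panobinostat (log2 fold change 2.35 ± 0.50, edgeR adjusted p = 0.159).

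Of 20 cytokine and chemokine genes 0 passed; 4 were at least 2-fold higher in both libraries (1.38% of all genes tested were) and 4 at least 2-fold lower (7.73%). Ccl3, an inflammatory chemokine, was at 7.11 and 9.79 CPM with vehicle and 36.6 and 41.5 CPM with panobinostat (log2 fold change 2.21 ± 0.45, edgeR adjusted p = 0.149), and with the offsets its gap shrank to 0.06 log2 units. Il18, an inflammasome-processed cytokine, was at 2.32 and 1.73 CPM with vehicle and 10.9 and 23.4 CPM with panobinostat (log2 fold change 3.08 ± 0.55, edgeR adjusted p = 0.132). Il12b and Il1b were among the genes lower in both, on few reads. Il12b had 22 and 8 counts with vehicle and 0 and 1 with panobinostat. Il1b had 3 and 5 counts with vehicle and 0 and 0 with panobinostat. Among receptors, Ccr2, which guides cells towards CCL2, was at 399 and 377 CPM with vehicle and 832 and 971 CPM with panobinostat (log2 fold change 1.22 ± 0.21, edgeR adjusted p = 0.128), and Cxcr3, which binds interferon-induced chemokines, at 258 and 229 CPM with vehicle and 509 and 620 CPM with panobinostat (log2 fold change 1.21 ± 0.22, edgeR adjusted p = 0.134). Both receptor genes were about 2-fold higher in each drug-treated pool, and with the offsets their nearest libraries were 0.92 and 0.59 log2 units apart. Of the 14 chemokine receptor and homing genes 0 passed.

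4 other lists split by library. For 41 respiratory chain genes the medians were 0.14 and 1.20 in the first and second panobinostat library, and 40 lay above 0 in the fit. For 46 ribosomal protein genes they were -0.03 and 1.12, with 45 above 0. With the offsets the medians were -0.25 and -0.38 and -0.26 and -0.25, so both lists lay below 0 in both libraries. For 26 cell cycle genes the medians were 0.51 and -1.55, and for 19 immediate early genes 0.82 and -0.74. No gene of these 4 lists was called, and for the cell cycle and immediate early lists the 2 pools pointed in opposite directions.

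**Figure D4:**
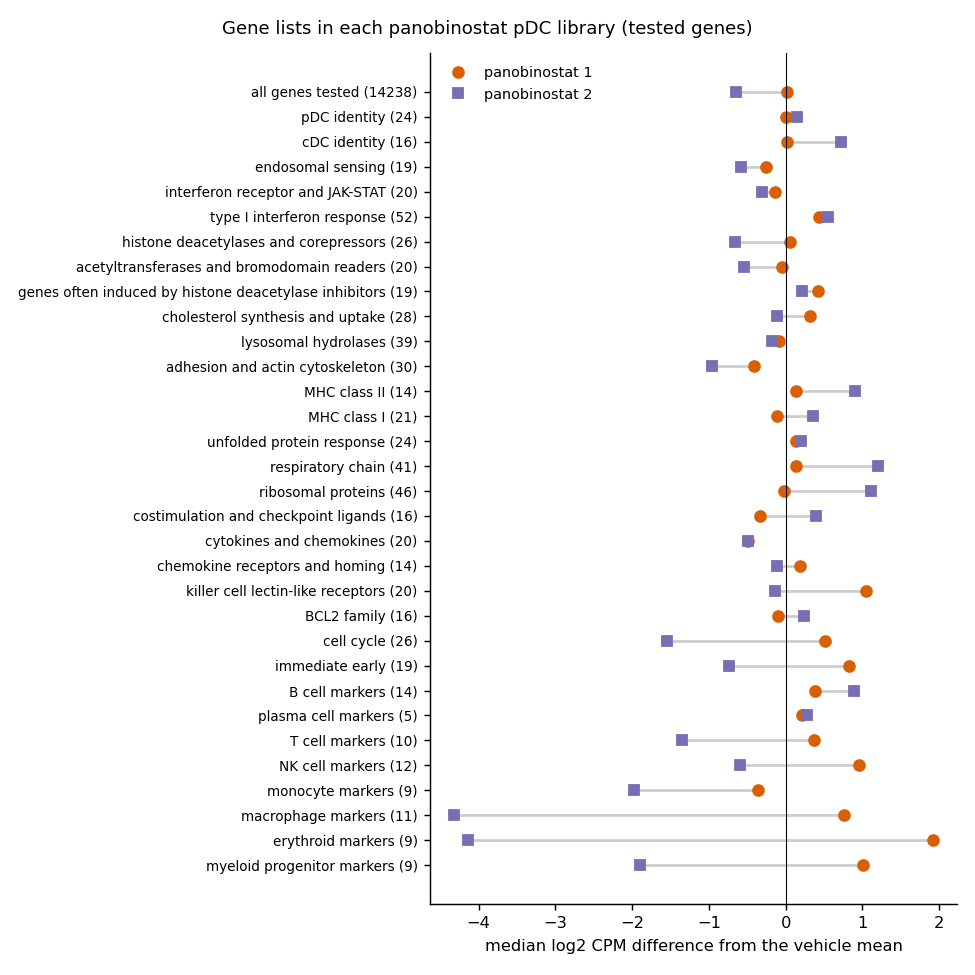
Median log2 CPM difference from the vehicle mean (x axis) over the tested genes of each list, number in brackets, in panobinostat replicate 1 (circle) and replicate 2 (square). Interferon response genes sit at 0.44 and 0.55, while cell cycle genes sit at 0.51 and -1.55.

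The panobinostat effect was then compared between pDC and cDC with an interaction contrast. 1 of 14238 genes passed (0.00702% called; 1107 genes, 7.77%, at an unadjusted p of 0.05). Plekho2 fell in pDC, its log2 fold change in cDC was 0.29, and the difference was -3.83 ± 0.25 (edgeR adjusted p = 0.0455). In cDC it was at 315 and 262 CPM with vehicle and 362 and 341 CPM with panobinostat. The call was lost with the replicate block and with the offsets (0 genes by edgeR under each; 1252 and 1069 at an unadjusted p of 0.05). Klri2 and Ifi27 had log2 fold changes of 0.87 and 0.88 in cDC, and their difference between the cell types did not pass (edgeR adjusted p = 0.150 and 0.359). Ccr2 had a log2 fold change of 1.71 in cDC and Spib -0.85, in the same direction as in pDC (edgeR adjusted p for the difference = 0.781 and 0.647).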

How the data were processed

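Per the labels' protocols, libraries of sorted pDC and cDC were made with NEBNext Single Cell/Low Input reagents. The extraction protocol mentions leukemia cells, whereas titles name dendritic cells. Per the submitters' processing notes, the tools were bcl2fastq (2.17.1.14), FastQC (0.11.6), cutadapt (2.1), HISAT2 (2.1.0), featureCounts (Subread 2.0.0) and limma, on mm10. The authors deposited whole-number read counts per Entrez gene ID. For strandedness and multiply aligned reads no setting is given in these sources, so counts of near-identical or overlapping genes are uncertain. Reads carry no recorded molecular identifiers, so floors (3 counts) cover counting error only. Symbols matched 25275 of 27179 gene IDs. 0 columns were left without a sample.

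Here edgeR (4.0.16, R 4.3.3) fitted all 8 libraries with 1 coefficient per group, TMM scaling and filterByExpr (minimum count 10, minimum total 15; 14238 genes), with 4 residual degrees of freedom. The quasi-likelihood F test was adjusted by Benjamini-Hochberg (threshold 0.05). CPM used TMM-scaled sizes, and log2 CPM a prior count of 2. GC content and length of the longest matched transcript came from GENCODE M21, for 12767 tested genes. Offsets were fitted per library on both. The members and the 33 lists were chosen with earlier results of these data known. Genes were named by a rule: all called genes, the 12 largest nearest-library gaps per direction, the 4 smallest p per list and a fixed set of pDC, interferon and deacetylase genes. DESeq2 (1.42.0) and limma (3.58.1) were alternatives. On simulated data the script was tested with known changes.

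Replicate numbers, shared by the labels across groups, were checked for pairing. Deviations from group means correlated at 0.15 to 0.49 in 6 of 6 pairs of groups. Numbers were therefore taken to pair samples, although the labels name no shared animal or day. The main fit left this pairing out, so its fold changes, SE and p values are unpaired. With the replicate block edgeR passed 0 genes in pDC and 0 for the difference between cell types.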

Additional observations from a re-analysis of the deposited data

Results flagged for a closer look

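Of 62 named genes examined, 20 were flagged, with libraries that moved apart in opposite directions in pDC and cDC. Other named genes had log2 fold changes of opposite sign without such separation, among them Akna (-3.00 in pDC and 0.20 in cDC). The share over all genes tested was not counted. In cDC none of the 20 passed the edgeR test. Their cDC log2 fold changes ran from 0.06 for Tyk2 to 0.85 for Rnf144b where pDC were lower, and Calm5 was at -1.11. For Plekho2 the difference passed the interaction test: its log2 fold change, pDC minus cDC, was -3.83 (edgeR adjusted p = 0.0455).

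The 19 others were flagged because every library moved one way in pDC and the other way in cDC, so that pattern was fixed by the choice. The interaction did not pass for them (edgeR adjusted p from 0.145 to 0.66). Over all genes tested, both panobinostat pDC libraries lay above both vehicle libraries in 15.8% and below both in 26.5%. The differences in log2 fold change, pDC minus cDC, were -3.05 for Srebf2, -1.96 for Man2b2, -1.86 for Lypla2, -1.64 for Scarb1, -3.65 for Sgsh and -1.38 for Scap, genes of sterols, lipids and lysosomes. They were -3.77 for Hip1r, -1.99 for Itgal, -2.23 for Lag3, -1.43 for Tex2 and -2.20 for Ciita. They were -1.84 for Pml, -1.98 for Dtx3l, -1.70 for Tyk2, -1.85 for Brd2 and -1.57 for Ncoa3. Calm5 differed the other way, by 7.29, but in cDC it was at 0.233 and 0.231 CPM with vehicle and 0.0482 and 0.163 CPM with panobinostat, a few reads per library. Rnf144b (-8.36) and Gatm (-7.38) had 0 counts in both panobinostat pDC libraries, so their fitted differences depend on the prior count and are no bound.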

How the results depend on the processing

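Against 13 genes called in pDC, edgeR called 2 with RLE scaling, 68 with no filter and 0 with the replicate block, with GC and length offsets, with both, with the pDC libraries alone, and with the pDC libraries alone plus the block (an added choice). Limma-voom called 0 and DESeq2 906. At an unadjusted p of 0.05 the fits with 0 calls had 541 to 2641 genes. Leaving out 1 library at a time gave 0 to 8227 genes; a lone library is then assumed to vary like the other groups. The highest came without the first panobinostat pDC library and 719 without the second; without the second and with offsets, a choice added after seeing the data, 621 were called. The cause was not tested.

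For the difference between cell types, 1 gene, edgeR called 0 with RLE scaling, library size scaling, the replicate block, the offsets and both, limma-voom 0, no filter 5 and DESeq2 290. Leaving out 1 library at a time gave 0 to 6457 (279 without the second panobinostat pDC library, 195 with offsets as well). The fits with 0 calls had 566 to 1400 genes at an unadjusted p of 0.05.

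The 196 genes higher in both became 371 when same-number libraries were paired (the replicate block of this count), 479 at 1.5-fold, 41 at 4-fold and 360 to 1646 without 1 pDC library. The 1100 lower in both became 1807 at 1.5-fold, 332 at 4-fold and 1363 to 5720 without 1 pDC library. All 62 named genes with alternatives kept their direction in the 20 alternative fits. Siglech, Tcf4, Bst2, Ccr9, Irf7, Ifnar2, Hdac1 and some other genes printed above were not among the 62, so their direction was not followed across the fits. Most of the 62 were named for a call, a large gap or a small p in these same libraries, so their constancy was largely fixed in advance. Each of the 13 called genes passed in 6 to 8 of these fits, some of which leave 1 library in a group. The depth and missing genes of the second panobinostat library limit what low values can show.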
